A study of Mus musculus with 6 samples.

Results

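The protein-coding genes that flank Scx on mouse chromosome 15 were followed in atrioventricular canal regions at embryonic day 15.5. They were chosen by position, as protein-coding genes of the mm9 annotation that start between 74290000 and 78290000. This window reaches about 2 Mb to either side of the start of Scx at 76287868. Scx, Plec and Rpl8 were left out, and of these the study lists Plec as lower in Scx-/- samples. The annotation held 121 such genes, and 72 of them had values among the 18810 genes of the deposited table. Of the 72 genes, 38 lay at lower coordinates than Scx and 34 at higher ones, and the other 49 were not analysed here. Distances are from the start of Scx to the start of the gene, with a minus sign for lower coordinates.

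RNA was sequenced from 3 Scx-/- and 3 Scx+/+ embryos on a C57BL/6 strain label, littermates by the study's methods, with 1 library per embryo. The dissected regions held the mitral, tricuspid and aortic valves. The Scx-/- embryos carried a targeted null allele in every cell, and the strain of the embryonic stem cells in which it was made is not given in the sources used here. Values are RPKM, read counts divided by exon length and library depth, and the libraries held from 46429969 to 68571035 reads as recovered from the table. The p-values measure the spread between these libraries, which come from separate embryos. In the dissected tissue, 5 valve mesenchyme markers summed to 818 to 845 RPKM in Scx-/- and 623 to 754 RPKM in Scx+/+ libraries, and 5 cardiomyocyte markers to 9957 to 13867 and 9335 to 15681 RPKM, so heart muscle RNA was abundant in every library. The valve mesenchyme sums rest mostly on Vim and Postn, and the other 3 markers had log2 fold changes below 0, at -0.50 for Col1a1, which did not overlap between genotypes, -0.22 for Twist1 and -0.15 for Sox9. Of the cardiomyocyte markers, Tnnt2 and Actc1 had log2 fold changes above 0 and the others below, with Myh7 not overlapping at -0.33. None of these 10 markers passed the test below. Scx-/- library 3 and Scx+/+ library 2 stood apart from the other 4 in many genes, and the calls are given with and without them. In whole tissue, fewer cells of a type and less RNA per cell cannot be told apart.

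Scx, or scleraxis, is a basic helix-loop-helix transcription factor of tendon and heart valve connective tissue that binds short DNA motifs called E-boxes. A null allele made by gene targeting is inherited together with the DNA beside it until recombination separates them, and an inserted or deleted stretch can itself act on neighbouring genes. The genes around Scx are therefore read on their own in a comparison of null and wild-type littermates. The region holds the Ly6 cluster of small surface proteins at its lower end, a dense run of housekeeping genes around Scx, and the genes for myoglobin, non-muscle myosin IIA and parvalbumin toward its upper end.

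Scx itself lies on the plus strand inside an intron of Bop1, a ribosome assembly factor on the minus strand, with no shared exon base. Whole-gene Scx was at 33.6, 18.6 and 82.9 RPKM in Scx-/- libraries 1 to 3 and at 29.5, 58.3 and 26.0 RPKM in Scx+/+ libraries 1 to 3. These values overlapped, with a log2 fold change of 0.07 (SE 0.51). The table holds no separate value for exon 1, the exon by which the study checked the null allele, so the whole-gene value does not check the genotypes, which are those of the labels.

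Promoters are shown for Mpst and Pvalb, which were higher in Scx-/- libraries, and for Ly6c1, which separated libraries within each genotype. They run from 250 bases before to 50 bases after the gene start listed by RefSeq on GRCm38.p6, at chr15:78406462-78406761 on the plus strand for Mpst, chr15:78206351-78206650 on the minus strand for Pvalb and chr15:75048788-75049087 on the minus strand for Ly6c1. Capitals mark the E-box letters CANNTG, which read the same on both strands.
Mpst: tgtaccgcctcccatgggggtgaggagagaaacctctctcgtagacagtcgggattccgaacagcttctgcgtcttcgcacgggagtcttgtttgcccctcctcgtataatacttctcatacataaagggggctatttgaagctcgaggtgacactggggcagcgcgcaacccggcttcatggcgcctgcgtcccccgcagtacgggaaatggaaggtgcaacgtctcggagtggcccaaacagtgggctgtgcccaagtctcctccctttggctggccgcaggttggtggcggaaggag
Pvalb: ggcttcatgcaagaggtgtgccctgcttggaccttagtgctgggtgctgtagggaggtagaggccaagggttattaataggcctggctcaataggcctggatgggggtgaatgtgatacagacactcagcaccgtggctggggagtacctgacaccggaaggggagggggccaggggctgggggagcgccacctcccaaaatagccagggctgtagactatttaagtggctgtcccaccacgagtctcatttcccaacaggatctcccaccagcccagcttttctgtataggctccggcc
Ly6c1: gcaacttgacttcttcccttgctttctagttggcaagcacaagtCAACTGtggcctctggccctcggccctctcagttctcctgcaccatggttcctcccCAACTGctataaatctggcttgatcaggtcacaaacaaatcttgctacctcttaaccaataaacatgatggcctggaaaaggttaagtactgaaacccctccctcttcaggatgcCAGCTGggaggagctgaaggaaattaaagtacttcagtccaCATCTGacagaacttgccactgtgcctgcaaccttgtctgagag
The Mpst and Pvalb windows held 0 CANNTG and 0 TATAAA on either strand, and the Ly6c1 window held 4 CANNTG and 1 TATAAA, which did not overlap. Of the 72 genes, 9 had an entry in the promoter table, and 5 of the 9 held CANNTG, against 72.1% of 27025 promoters of the same length. A match of letters is not a binding site, and its lack in this window says nothing of binding elsewhere.

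Few of the 72 genes passed the unadjusted limma test, and those that did were all higher in Scx-/- libraries. At an unadjusted p below 0.05, the limit the study used, 5 of 72 genes passed (6.94%), against 3.89% of all genes, 2.8% of protein-coding genes and 17 of 449 protein-coding genes on the rest of chromosome 15 (3.79%). All 5 were higher in Scx-/- libraries, against a background of 2.82% of all genes higher and 1.06% lower, or 2.25% and 0.554% of protein-coding genes. They were Ly6i, Recql4, Zfp251, Pvalb and Mpst. The deposited table kept only genes with enough reads in at least 1 library. Ly6i had 37, 33 and 123 recovered reads in Scx-/- libraries and 6 in Scx+/+ library 2. Its Scx+/+ libraries 1 and 3 were at 0.0949 RPKM, the fill-in value that the authors set in place of lower ones. Pvalb had 44, 52 and 70 recovered reads in Scx-/- libraries and 9, 26 and 13 in Scx+/+ libraries. Ly6i and Pvalb were thus kept through their Scx-/- libraries, so their direction was not independent of being in the table. The same limit holds for Slurp1, Ly6d, 4933427E11Rik and Ncf4, none of which passed. Each stood well above the fill-in value in 1 Scx-/- library, with the other libraries at or near it. After Benjamini-Hochberg adjustment of the limma p-values over 18810 genes, 0 of the 72 passed at 0.05, as did 0 of all genes, and the smallest adjusted p among the 72 was 0.967. The log2 fold change was above 0 in 51 genes and below 0 in 21, so that 70.8% were above 0, against 63.8% of all genes. It lay within 0.2 of 0 for 21 genes and beyond 1 for 3. Its median was 0.21, against 0.10 over all genes and 0.09 over the rest of chromosome 15. The 72 genes were also lower in level and more variable than the table as a whole, with a median of 1.82 RPKM against 3.43 RPKM and a median SE of 0.37 against 0.32 on the log2 scale.

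**Figure D1:**
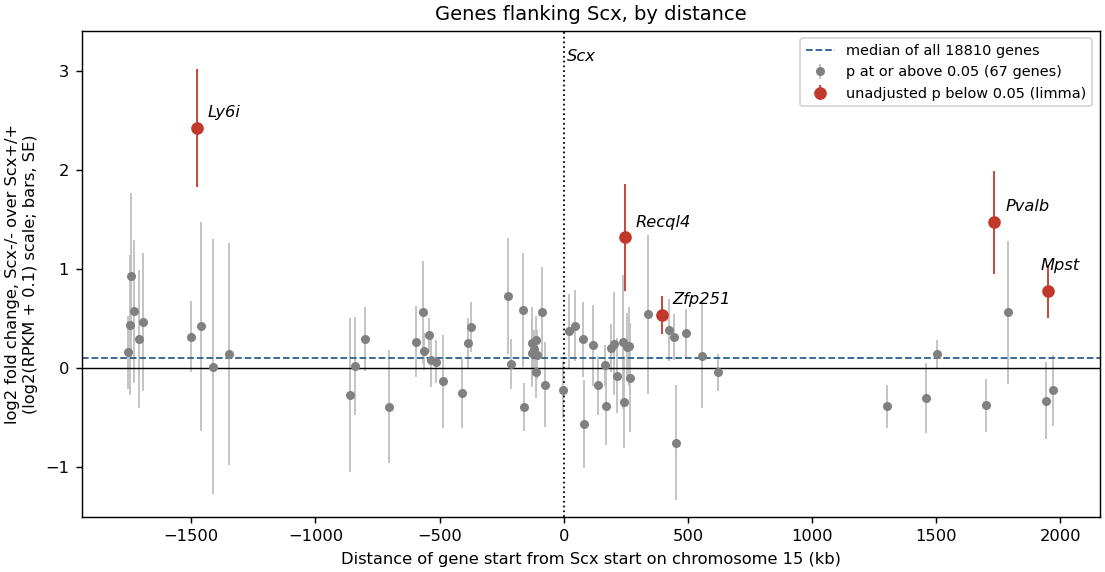
Log2 fold change of each of the 72 genes, Scx-/- over Scx+/+ on the log2(RPKM + 0.1) scale, with its SE as a bar, against the distance of its start from the start of Scx in kb; red points are the 5 genes at an unadjusted p below 0.05 by limma, and the dashed line is the median of all genes, 0.10. The 5 red points lie from -1477.6 to 1949.3 kb, and the points nearest to Scx lie on both sides of 0.

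Mpst, which encodes mercaptopyruvate sulfurtransferase, an enzyme of cysteine breakdown and hydrogen sulfide production, lay near the upper end of the window at 1949.3 kb. It was at 3.72, 3.05 and 4.45 RPKM in Scx-/- libraries and at 1.76, 2.62 and 2.07 RPKM in Scx+/+ libraries, from 160 to 403 reads. The genotypes did not overlap, and the means were 3.74 ± 0.699 and 2.15 ± 0.434 RPKM (SD, n = 3 each), a log2 fold change of 0.77 (SE 0.27). Its paralog and nearest neighbour Tst, the thiosulfate sulfurtransferase rhodanese, was at 1.97, 1.04 and 1.87 RPKM against 1.61, 3.15 and 1.55 RPKM. Tst overlapped between genotypes, with a log2 fold change of -0.33 (SE 0.39), and did not pass the test.

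Pvalb encodes parvalbumin, a calcium-buffering protein of fast muscle and some neurons, and lay at 1733.7 kb. It was at 0.808, 0.746 and 1.13 RPKM in Scx-/- libraries and at 0.144, 0.538 and 0.182 RPKM in Scx+/+ libraries, a log2 fold change of 1.47 (SE 0.52). The genotypes did not overlap, but these values rested on 9 to 70 reads per library. Its neighbour Ift27, a small GTPase of the transport system of cilia, lay on the other side of 0, at 1.81, 1.61 and 2.25 RPKM against 2.52, 2.40 and 2.46 RPKM. Ift27 did not overlap either, but did not pass the test, with a log2 fold change of -0.38 (SE 0.26).

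Zfp251, a zinc finger protein gene at 394.7 kb, was the best measured of the 5. It was at 7.31, 7.82 and 6.42 RPKM in Scx-/- libraries and at 5.11, 5.07 and 4.54 RPKM in Scx+/+ libraries, from 824 to 1832 reads. The lowest Scx-/- library lay above the highest Scx+/+ library, and the means were 7.18 ± 0.709 and 4.91 ± 0.318 RPKM (SD, n = 3 each), a log2 fold change of 0.54 (SE 0.19) on the log2(RPKM + 0.1) scale. The genes next to it did not pass the test. Zfp7, another zinc finger gene, had a log2 fold change of 0.39 (SE 0.31), Commd5, a member of the COMMD family of trafficking proteins, of 0.31 (SE 0.24), and Zfp647 of -0.75 (SE 0.58).

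Recql4 encodes a DNA helicase of replication and repair, and lay at 246.1 kb. It was at 0.950, 0.963 and 0.555 RPKM in Scx-/- libraries and at 0.441, 0.0949 and 0.346 RPKM in Scx+/+ libraries, where 0.0949 RPKM is the value the authors set in place of lower ones. The log2 fold change was 1.32 (SE 0.54), and the genotypes did not overlap. Recql4 shares 421 exon bases, 10.4% of its exons, with Mfsd3 on the opposite strand, and reads there cannot be told apart if counted without strand. Mfsd3, a membrane transporter gene, had a log2 fold change below 0 that did not pass the test, at -0.34 (SE 0.46).

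Ly6i, of the Ly6 family of surface proteins anchored by a glycolipid, lay at -1477.6 kb. It was at 0.805, 0.561 and 2.35 RPKM in Scx-/- libraries, from 37, 33 and 123 reads, and at 0.0949, 0.147 and 0.0949 RPKM in Scx+/+ libraries, where 2 values are the fill-in value and the other rested on 6 reads. The genotypes did not overlap. The fitted log2 fold change of 2.43 (SE 0.60) depends on the fill-in value. Of its 50-base stretches, 3.76% were also found in other genes, mostly Ly6a.

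**Figure D2:**
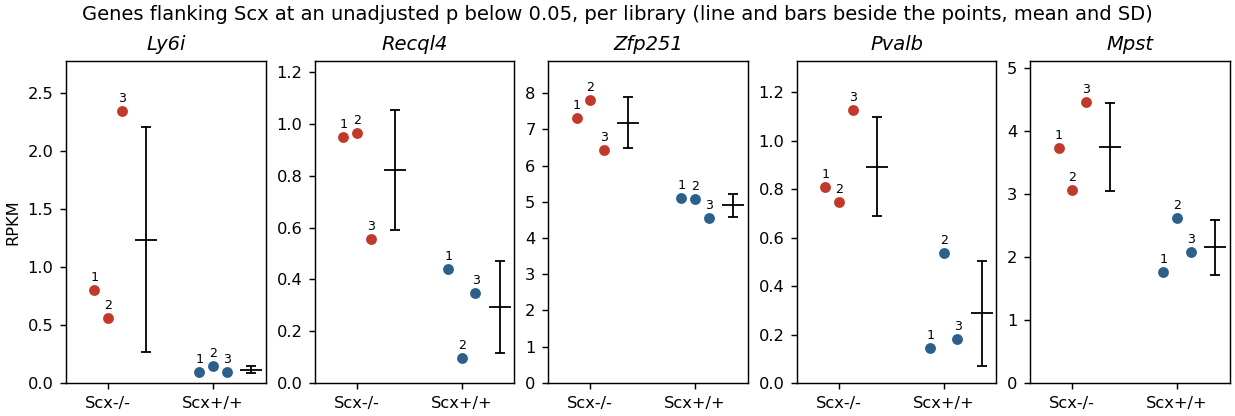
RPKM of Ly6i, Recql4, Zfp251, Pvalb and Mpst in each library, with the library number over each point and the mean and SD beside the points. In all 5 genes the 3 Scx-/- points lie above the 3 Scx+/+ points, with 3 of the 5 genes at a mean under 1 RPKM over the 6 libraries.

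Leaving out each library in turn, Ly6i and Zfp251 passed the unadjusted limit in 6 of 6 fits, and Recql4, Pvalb and Mpst in 3 of 6 each. Recql4 was lost without Scx-/- library 1 or 2, or Scx+/+ library 2, with log2 fold changes of 1.21, 1.20 and 0.87, and also with the replicate number as a block and with an analysis of variance without moderation. Pvalb and Mpst were each lost without Scx-/- library 3, Scx+/+ library 1 or Scx+/+ library 3. With genes limited to a mean of at least 1 RPKM, Zfp251 and Mpst were the 2 that remained.

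Counted by overlap alone, 13 of the 72 genes (18.1%) had every library of one genotype above every library of the other, against 9.5% of all genes, 9.76% of protein-coding genes and 45 of 449 on the rest of chromosome 15. Of the 13 genes, 9 were higher in Scx-/- libraries and 4 lower, against 7.19% and 2.31% of all genes and 7.43% and 2.33% of protein-coding genes. Besides the 5 genes above, the higher ones were Pycrl, Nrbp2, Fam203a and Eif3d, and the lower ones Oplah, Gpr172b, Tonsl and Ift27. An exact permutation test of 3 against 3 libraries cannot give a p below 0.1, which these 13 genes reached. Pycrl, an enzyme of proline synthesis, was at 12.5, 13.3 and 14.8 RPKM against 11.5, 9.73 and 10.9 RPKM. Oplah, the 5-oxoprolinase of the glutathione cycle, was lower, at 1.89, 2.08 and 2.0 RPKM against 2.76, 2.64 and 2.53 RPKM. Neither passed the limma test, with log2 fold changes of 0.34 (SE 0.17) and -0.39 (SE 0.24). With the analysis of variance that the study used, without moderation, 8 of the 72 genes passed, against 862 of all 18810 genes. The 8 genes were 4 of the 5 genes above, all but Recql4, with Pycrl and Nrbp2 as higher and Oplah and Gpr172b as lower in Scx-/- libraries.

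The genes closest to Scx showed no shared direction. Within 100 kb lay 7 genes, none of which passed at an unadjusted p below 0.05 by limma, with 4 above 0 and 3 below and a median log2 fold change of 0.29. Bop1, which contains Scx, was at 7.30, 9.32 and 15.6 RPKM in Scx-/- libraries and at 10.7, 14.7 and 10.7 RPKM in Scx+/+ libraries. Its genotypes overlapped, with a log2 fold change of -0.22 (SE 0.29). Scx-/- library 3 and Scx+/+ library 2 were the highest for Bop1, as they were for Scx itself. Hsf1, the heat shock transcription factor at 20.0 kb, was at 1.97, 3.06 and 2.22 RPKM against 1.87, 2.81 and 1.10 RPKM, with a log2 fold change of 0.38 (SE 0.37). Dgat1, which makes triglycerides and lies at 44.6 kb, had a log2 fold change of 0.43 (SE 0.36), with Scx+/+ library 3 the lowest of the 6 for both genes. On the lower side, Heatr7a at -77.2 kb had a log2 fold change of -0.17 (SE 0.43), and Fam203a at -88.5 kb of 0.57 (SE 0.46). Fbxl6, an F-box gene at 78.3 kb, and Gpr172b, a riboflavin transporter gene at 81.5 kb, are neighbours and differed in sign. Their log2 fold changes were 0.29 (SE 0.38) and -0.56 (SE 0.44). Gpr172b did not overlap between genotypes, at 0.319, 0.321 and 0.341 RPKM against 0.512, 0.614 and 0.470 RPKM. It passed as lower in Scx-/- libraries by limma without the intensity trend and with the analysis of variance, while Fbxl6 passed as higher without Scx-/- library 3, at a log2 fold change of 0.67.

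The share of genes that passed and the median showed no steady order by distance. Under 0.25 Mb from Scx, 1 of 27 genes passed and the median log2 fold change was 0.19. From 0.25 to 0.5 Mb, 1 of 13 passed, with a median of 0.25, and from 0.5 to 1 Mb 0 of 12 passed, with a median of 0.10. From 1 to 2 Mb, 3 of 20 passed, with a median of 0.31. The outer genes differed by side. All 11 at lower coordinates were above 0, with a median of 0.42 and 1 gene that passed, while of the 9 at higher coordinates 4 were above 0 and 5 below, with a median of -0.23 and 2 genes that passed. Of those 11 outer genes, 9 belong to the Ly6 family, and their median SE was 0.71, the largest of the distance groups. Among the 11, Ly6i, Slurp1, Ly6d and 4933427E11Rik were in the table through Scx-/- libraries. Their sign was therefore not independent of being in the table, which limits the difference between the sides.

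**Figure D3:**
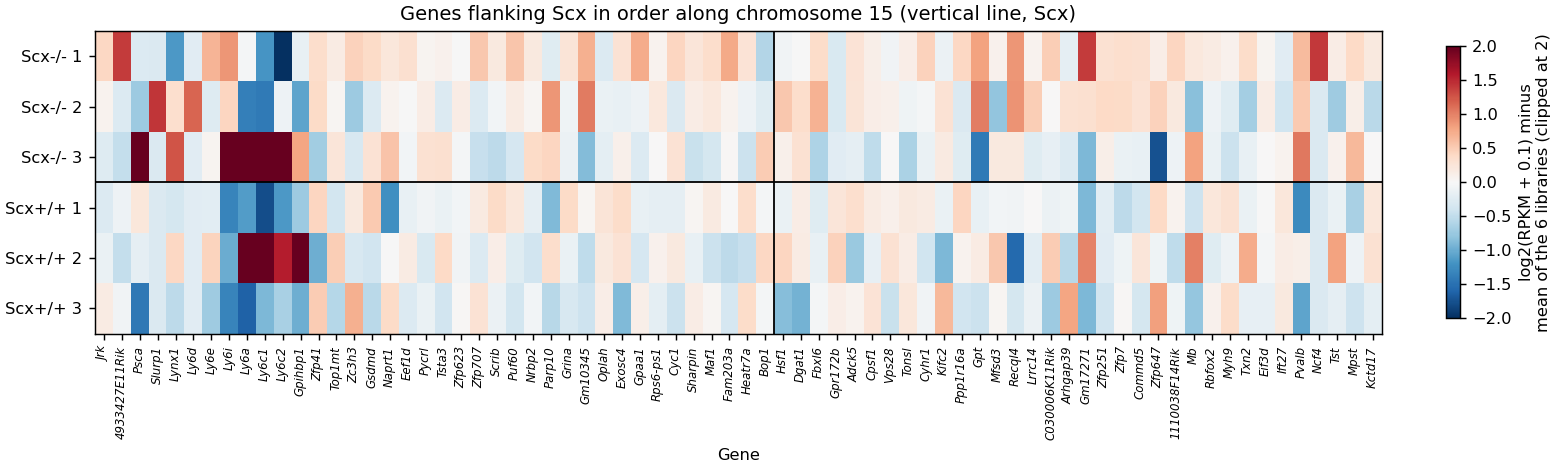
Difference of each library from the mean of the 6 libraries, on the log2(RPKM + 0.1) scale, for the 72 genes in order along chromosome 15. Colour follows single libraries in the Ly6 genes at the lower end. Scx-/- library 3 and Scx+/+ library 2 share high values there in Lynx1, Ly6a, Ly6c1 and Ly6c2.

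The Ly6 family, relatives of the urokinase receptor that sit on the surface of blood, endothelial and epithelial cells, was the largest group, with 10 of 16 annotated genes in the table. Ly6i passed the test, 9 of the 10 had a log2 fold change above 0, and the median was 0.37, against 0.10 over all genes. Several of these genes ranged widely between libraries of a genotype. Ly6a, or stem cell antigen 1, was at 2.64, 0.984 and 11.5 RPKM in Scx-/- libraries and at 1.20, 11.9 and 0.819 RPKM in Scx+/+ libraries. Ly6c1, an endothelial and leukocyte surface protein, was at 0.978, 0.817 and 14.9 RPKM against 0.615, 15.2 and 1.22 RPKM. Gpihbp1, which carries lipoprotein lipase to the capillary surface, was at 5.38, 2.83 and 10.4 RPKM against 3.58, 26.2 and 2.99 RPKM. In each of these genes Scx-/- library 3 and Scx+/+ library 2 were the highest, and the log2 fold changes of 0.42, 0.02 and -0.27 had SEs of 1.05, 1.29 and 0.78. Ly6i was high only in the first of that pair, at 2.35 RPKM, against 0.147 RPKM in Scx+/+ library 2. Ly6c1 and Ly6c2 share 31.9% and 34.1% of their 50-base stretches, almost all with each other, so reads may be split between them. Slurp1 and Ly6d, secreted and surface proteins of squamous epithelium, stood above the fill-in value in Scx-/- library 2 only. Like that of Ly6i, their sign was therefore not independent of being in the table.

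Of the 72 genes, 10 were highest in Scx-/- library 3 and Scx+/+ library 2, as were 10.7% of all genes, and 5 of the 10 belong to the Ly6 family. Mb, which encodes myoglobin, the oxygen store of muscle, was the most abundant of the 72 genes, at 813, 397 and 1237 RPKM in Scx-/- libraries and at 528, 1415 and 415 RPKM in Scx+/+ libraries. The same 2 libraries were the highest again, and the log2 fold change was 0.12 (SE 0.53). Beside this, 5 cardiomyocyte markers summed to 13867 and 15681 RPKM in the 2 libraries and to 9335 to 12503 RPKM in the other 4. Among these markers, Myh7 and Nppa were not high in Scx-/- library 3. They were at 2148 and 453 RPKM there, against 1923 to 2824 and 407 to 982 RPKM in the other 4. Embryonic globin Hbb-y was at 1.16 and 1.99 RPKM in the 2 libraries, against 49.6 to 125 RPKM. As a sum, the 5 red blood cell markers, Hbb-y among them, did not separate the 2 libraries. They summed to 4722 and 5311 RPKM, against 3923 to 7137 RPKM. Summed endothelial markers were 73.7 and 79.9 RPKM against 75.6 to 93.4 RPKM. None of the 5 cardiomyocyte markers or the 4 endothelial markers passed the test between genotypes, no defining marker of either list was at the fill-in value, and the part of these cell types in the values of the Ly6 genes and Mb was not tested. Without both libraries, an alternative chosen after seeing the data, 9 of 72 genes passed, all higher in Scx-/- libraries and including the 5, while the calls over all genes went from 731 to 1587.

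**Figure D4:**
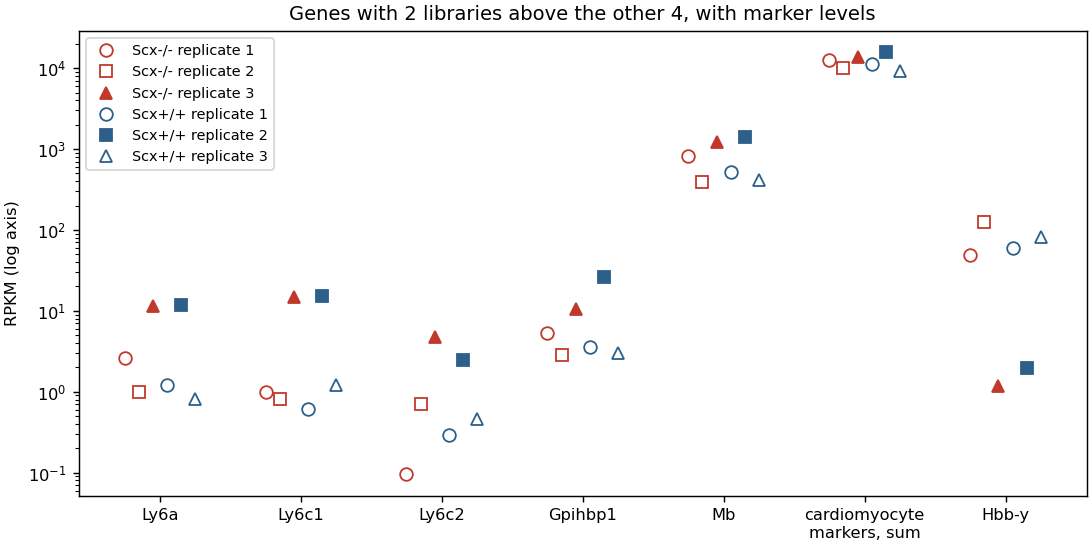
RPKM on a log axis of Ly6a, Ly6c1, Ly6c2, Gpihbp1 and Mb, of the summed cardiomyocyte markers and of embryonic globin Hbb-y in each library. Filled symbols are Scx-/- library 3 and Scx+/+ library 2, which lie above the other 4 libraries for the 5 genes and the marker sum and below them for Hbb-y.

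Among genes of white blood cell function, 2 of 4 annotated genes had values and neither passed. Gsdmd, the pore-forming gasdermin D of inflammatory cell death, was at 3.15, 1.95 and 2.94 RPKM against 3.48, 1.81 and 1.6 RPKM. Ncf4, a subunit of the phagocyte oxidase, was at 0.530 RPKM in Scx-/- library 1 and at the fill-in value in the other 5 libraries. Of 6 macrophage and white blood cell markers in the table, Cd68 passed, with a log2 fold change of 1.48 (SE 0.57). It was at 0.639, 1.54 and 0.812 RPKM against 0.358, 0.0949 and 0.476 RPKM, so its fold change depends on the fill-in value in Scx+/+ library 2. The summed level of the list was 5.49 to 8.54 RPKM in Scx-/- and 4.69 to 5.87 RPKM in Scx+/+ libraries. The part of these cells in the values of the Ly6 genes was not tested. All 12 annotated genes of the apolipoprotein L family, between Mb and Myh9, were not analysed here.

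The mitochondrial and metabolic genes were measured in full, with 12 of 12 in the table, 9 above 0 and 3 below, and a median log2 fold change of 0.27. Mpst was the 1 that passed. Cyc1, cytochrome c1 of respiratory complex III, was the most abundant, at 138, 83.9 and 126 RPKM in Scx-/- libraries and at 91.0, 117 and 76.1 RPKM in Scx+/+ libraries. The genotypes overlapped, with a log2 fold change of 0.28 (SE 0.24). Txn2, the mitochondrial thioredoxin, lay below 0, at 5.21, 2.46 and 3.62 RPKM against 3.65, 6.76 and 3.58 RPKM, with a log2 fold change of -0.30 (SE 0.35).

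Of the genes of RNA processing and translation, 0 of 7 passed the test, with 4 above 0 and 3 below, and a median of 0.14. Puf60, a splicing factor, was at 57.9, 44.0 and 31.3 RPKM against 46.4, 33.5 and 30.4 RPKM. Eif3d, a subunit of a translation initiation factor, was at 41.4, 43.9 and 40.0 RPKM against 39.8, 38.8 and 35.4 RPKM, with no overlap but a log2 fold change of 0.14 (SE 0.15). It shares 625 exon bases, 32.7% of its exons, with Gm17638 on the opposite strand. Rbfox2, a regulator of splicing in muscle and nerve, had a log2 fold change of -0.04 (SE 0.19). Rps6-ps1, at 372 RPKM, shares 41.8% of its 50-base stretches with other genes, mostly the ribosomal protein gene Rps6, and its level is uncertain for that reason.

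Of the 10 transcription factor and zinc finger genes in the table, Zfp251 passed, 7 were above 0 and 3 below, and the median was 0.10. Maf1, a repressor of RNA polymerase III, was the most abundant at 11.6 RPKM, with a log2 fold change of 0.14 (SE 0.25). Zfp623 lay within a narrow range, at 3.43, 3.86 and 3.35 RPKM against 3.33, 3.30 and 3.52 RPKM, with a log2 fold change of 0.06 (SE 0.22). Zc3h3 shares 91.3% of its 50-base stretches with Gm7353, so its value is uncertain.

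The cytoskeleton and polarity genes lay mostly below 0, with 1 of 4 above 0 and 3 below, 0 past the test and a median of -0.18. Myh9, the heavy chain of non-muscle myosin IIA, was at 10.6, 8.45 and 7.37 RPKM in Scx-/- libraries and at 12.4, 9.24 and 12.9 RPKM in Scx+/+ libraries. The genotypes overlapped, through Scx-/- library 1 and Scx+/+ library 2, and the log2 fold change was -0.38 (SE 0.22). Myh9 passed the unadjusted limit as lower in Scx-/- libraries under quantile normalization, at -0.50, after centring each library on its median log2 ratio, at -0.49, and without Scx+/+ library 2, at -0.53. Scrib, which sets cell polarity, had a log2 fold change of -0.26 (SE 0.34).

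The membrane and transport genes split evenly, with 3 of 6 above 0, 0 past the test and a median of -0.16. Vps28, of the ESCRT-I complex that sorts membrane proteins for breakdown, was at 30.8, 34.9 and 32.6 RPKM against 34.7, 39.9 and 23.9 RPKM, with a log2 fold change of 0.03 (SE 0.21). Of the 3 genes of genome maintenance, Recql4 passed and the other 2 had log2 fold changes of opposite sign. Tonsl, which protects stalled replication forks, was at 0.802, 0.675 and 0.429 RPKM against 0.837, 0.813 and 0.856 RPKM, a log2 fold change of -0.38 (SE 0.40). Parp10, an ADP-ribosyltransferase, had a log2 fold change of 0.72 (SE 0.58), and its Scx-/- and Scx+/+ libraries overlapped.

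The median log2 fold change varied with the libraries included. The median deviation of the 72 genes from the mean library was 0.21, 0.06 and -0.08 in Scx-/- libraries 1 to 3 and -0.08, -0.08 and -0.20 in Scx+/+ libraries 1 to 3, on the log2 scale. Over all genes the same medians were 0.13, 0.03 and -0.05, and 0.03, -0.11 and -0.12. Without Scx-/- library 1, the median log2 fold change of the 72 genes was 0.06, the same as that over all genes without that library, and without Scx+/+ library 2 it was 0.28, against 0.10 over all genes. After centring each library on its median log2 ratio, it was 0.10, against -0.00 over all genes, so that the gap between them was 0.10 with and without centring. The gap was smaller in some other fits. Among genes averaging at least 1 RPKM, the medians were 0.15 for the flanking genes and 0.11 for all genes. Without Scx+/+ library 3 they were 0.09 and 0.07.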

How the data were processed

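RNA from dissected atrioventricular canal regions of 3 Scx-/- and 3 Scx+/+ embryos was sequenced by the authors on an Illumina instrument and aligned to mm9 with TopHat 1.4.1, and reads over Ensembl genes were counted with easyRNASeq. Values were deposited as RPKM, normalized by the authors for exon length and depth, filtered to genes with enough reads in at least 1 library, with low values replaced by 0.0949 RPKM. Of the 72 flanking genes, 4 were under 50 recovered reads in every library. Whether strand was used in counting is not given in the sources used here.

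Gene positions, types and exon lengths came from GENCODE for mm9 (18695 of 18810 identifiers found), which may differ in part from the annotation used by the authors. Reads were recovered from RPKM, exon length and a solved depth per library, and served to describe depth. Genotypes were compared by limma 3.58.1 (R 4.3.3) over all 18810 genes after adding 0.1 RPKM and taking log2. Variances were moderated with a trend on intensity, no covariate was used, and p-values were adjusted by Benjamini-Hochberg. Fold changes on this scale understate the change of low genes. The script was tested on simulated data with known changes. Tables and plots were made in Python 3.11.15 with pandas 2.3.3, numpy 2.4.6 and matplotlib 3.10.9. Exon overlap was counted from 1 base, and shared sequence as 50-base stretches of annotated transcripts found in other genes. Promoters were taken from RefSeq.

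The genes, their role lists and the rule for named genes were chosen with earlier results of these data known. The rule named genes within 100 kb of Scx, genes at an unadjusted p below 0.05, the 5 with the highest mean RPKM and up to 4 per role list. It also named Ly6i, Pvalb and Mpst, which the study lists as higher in Scx-/- samples from the same libraries. Neighbours of these genes, other Ly6 genes and genes without overlap between genotypes were named after their values were seen. Alternatives were pseudocounts of 0.01 and 1, a mean of at least 1 RPKM, limma without the trend, an analysis of variance without moderation, quantile normalization, median centring, the replicate number as a block, each library left out and a window of 1 Mb. Added after seeing the data were a mean of at least 20 recovered reads and leaving out 2 libraries together.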

Additional observations from a re-analysis of the deposited data

How the results depend on the processing

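Of 72 genes, 5 passed at an unadjusted p below 0.05. The count was 2 of 48 among genes averaging 1 RPKM or more and 2 of 52 within 1 Mb, where fewer genes were counted, 8 with an analysis of variance without moderation, 4 of them shared with the 5, and 9 without Scx-/- library 3 and Scx+/+ library 2, chosen after seeing the data, the 5 among them. Leaving out 1 library gave 3 to 7, with 3 without Scx+/+ library 1 or 3. The cause of these shifts was not tested. The median log2 fold change of 0.21 ranged from 0.056 without Scx-/- library 1 to 0.28 without Scx+/+ library 2, and was 0.09 without Scx+/+ library 3. Median centring moved the median of all genes from 0.10 to -0.00 and quantile normalization to 0.02, the share of all calls that were higher in Scx-/- from 72.6% to 45.0% and 49.9%, and the median of the 72 genes to 0.10 and 0.11. In both, 6 of the 72 genes passed, the 5 and Myh9 as lower. Over all genes 731 passed, 862 with the analysis of variance, 1549 without Scx+/+ library 2 and 1587 without both libraries. With the replicate number as a block, 4 of the 72 genes passed, without Recql4, and 573 of all genes. Same-numbered libraries deviated with correlations of 0.09, -0.22 and -0.19, so the numbers were not taken to pair them. Of 628 values of the 40 named genes under alternatives, 610 stayed on their side of the limit, 11 no longer passed, 7 newly passed and 0 passed in the other direction. Among values that passed in neither fit, 38 turned sign, in 14 of the 40 genes, so counts above and below 0 include genes of unsettled sign, such as Bop1, Gpihbp1 and Ly6a. Depth limits Ly6i, Pvalb and other genes with few reads, and adjusted p-values passed for none of the 72 genes.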
